A study of Mus musculus with 18 samples.

Results

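Cells sense and take up collagen through a small number of surface proteins, and 8 mouse genes for such proteins are described here across MPC3 cells with and without knockdown of Rnf185. They were chosen by name, with earlier results of these data known. Among them are the alpha subunits of the collagen-binding integrins (Itga1, Itga2, Itga10 and Itga11) and their shared beta subunit (Itgb1). The others are the discoidin domain receptors (Ddr1 and Ddr2) and the collagen uptake receptor (Mrc2). All 8 were found among the 47643 genes of the deposited count table, and all 8 passed the filter on low counts, which left 14309 genes for testing. MPC3 is a mouse prostate cancer cell line, and Rnf185 encodes a ubiquitin ligase of the endoplasmic reticulum membrane. The control group carried plko, the name of a hairpin vector. The other groups carried a short hairpin RNA against Rnf185, labelled shRNF185.1 or shRNF185.3. Each of the 3 groups had 6 libraries, numbered 1 to 6, with 2 libraries of every group in each of 3 batches. The labels give no time point, and they do not say whether a hairpin line was a clone or a pool, or that libraries of a group came from separate cultures. The p-values therefore measure the spread between these libraries, which may be technical.

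An integrin is a pair of subunits, and each of the 4 collagen-binding alpha subunits forms a receptor only with the beta1 subunit, which also pairs with alpha subunits that bind fibronectin or laminin. The subunits alpha1 and alpha10 are known to favour collagens IV and VI, and alpha2 and alpha11 fibrillar collagens such as type I. The discoidin domain receptors are tyrosine kinases that triple-helical collagen switches on. Ddr1 is typical of epithelial cells and Ddr2 of mesenchymal cells, where fibrillar collagen is its ligand. Mrc2 encodes Endo180, an endocytic receptor of the mannose receptor family that carries collagen and its fragments to lysosomes.

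Total counts per library ran from 22027395 to 43379662, and a floor of 3 counts corresponds to 0.0701 to 0.134 CPM (counts scaled to library size), for counting error only. The targeted gene fitted every label: Rnf185 was at 33.6 to 38.4 CPM in the control libraries, 5.21 to 6.80 CPM under shRNF185.1 and 5.19 to 6.72 CPM under shRNF185.3, a log2 fold change of -2.63 for both hairpins (edgeR adjusted p = 9.3e-15 and 1.91e-14). Of the epithelial markers, 4 of 6 were at 1 CPM or more, while Epcam and Krt5 had 43 and 10 counts summed over all libraries. The prostate luminal marker Pbsn had 0 counts in all libraries. All 4 mesenchymal markers were at 1 CPM or more. Endothelial markers reached this level in 0 of 3 and immune markers in 1 of 4, with Cd3e at 0.

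With shRNF185.1, Mrc2 rose 2.13-fold, Itga1 rose 1.83-fold, Ddr1 rose 1.19-fold and Itga11 fell to 0.504 of its control level. With shRNF185.3, Ddr2 rose 2.32-fold, Mrc2 1.95-fold, Itga1 1.51-fold and Ddr1 1.19-fold. Mrc2, Itga1 and Ddr1 thus rose with both hairpins, while Ddr2 rose and Itga11 fell with 1 hairpin each. A direct test between the hairpins also called the differences for Ddr2 and Itga11. The abundant beta subunit Itgb1 and the scarce Itga2 and Itga10 passed the test in none of the 3 comparisons.

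These counts are read against how many genes moved in all. Genes were called at a Benjamini-Hochberg adjusted p under 0.05 in edgeR's quasi-likelihood test, adjusted over all 14309 genes. Of the 8 genes, 4 were called under shRNF185.1 (50%) and 4 under shRNF185.3 (50%), against 28.9% and 27.3% of all genes tested. Between the hairpins 2 of 8 were called (25.0%), against 14.7% of all genes. The groups did not overlap for 3 of the 8 genes under shRNF185.1, 3 under shRNF185.3 and 2 between the hairpins, beside 12.8%, 13.3% and 8.25% of all genes. Under shRNF185.1 3 of the 8 rose and 1 fell, where 14.6% of all genes rose and 14.3% fell. Under shRNF185.3 4 rose, where 14.2% of all genes rose and 13.1% fell. The 2 genes called between the hairpins were both higher under shRNF185.3, as were 7.72% of all genes, while 6.94% were lower. Of the 8, 3 rose with both hairpins, and 16.1% of all genes were called in the same direction with both, 8.99% higher and 7.13% lower. The median log2 fold change of the 8 genes was 0.05 under shRNF185.1 and 0.23 under shRNF185.3, beside -0.02 over all genes in both comparisons. Both comparisons use the same 6 control libraries, so their values are not independent of each other.

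**Figure D1:**
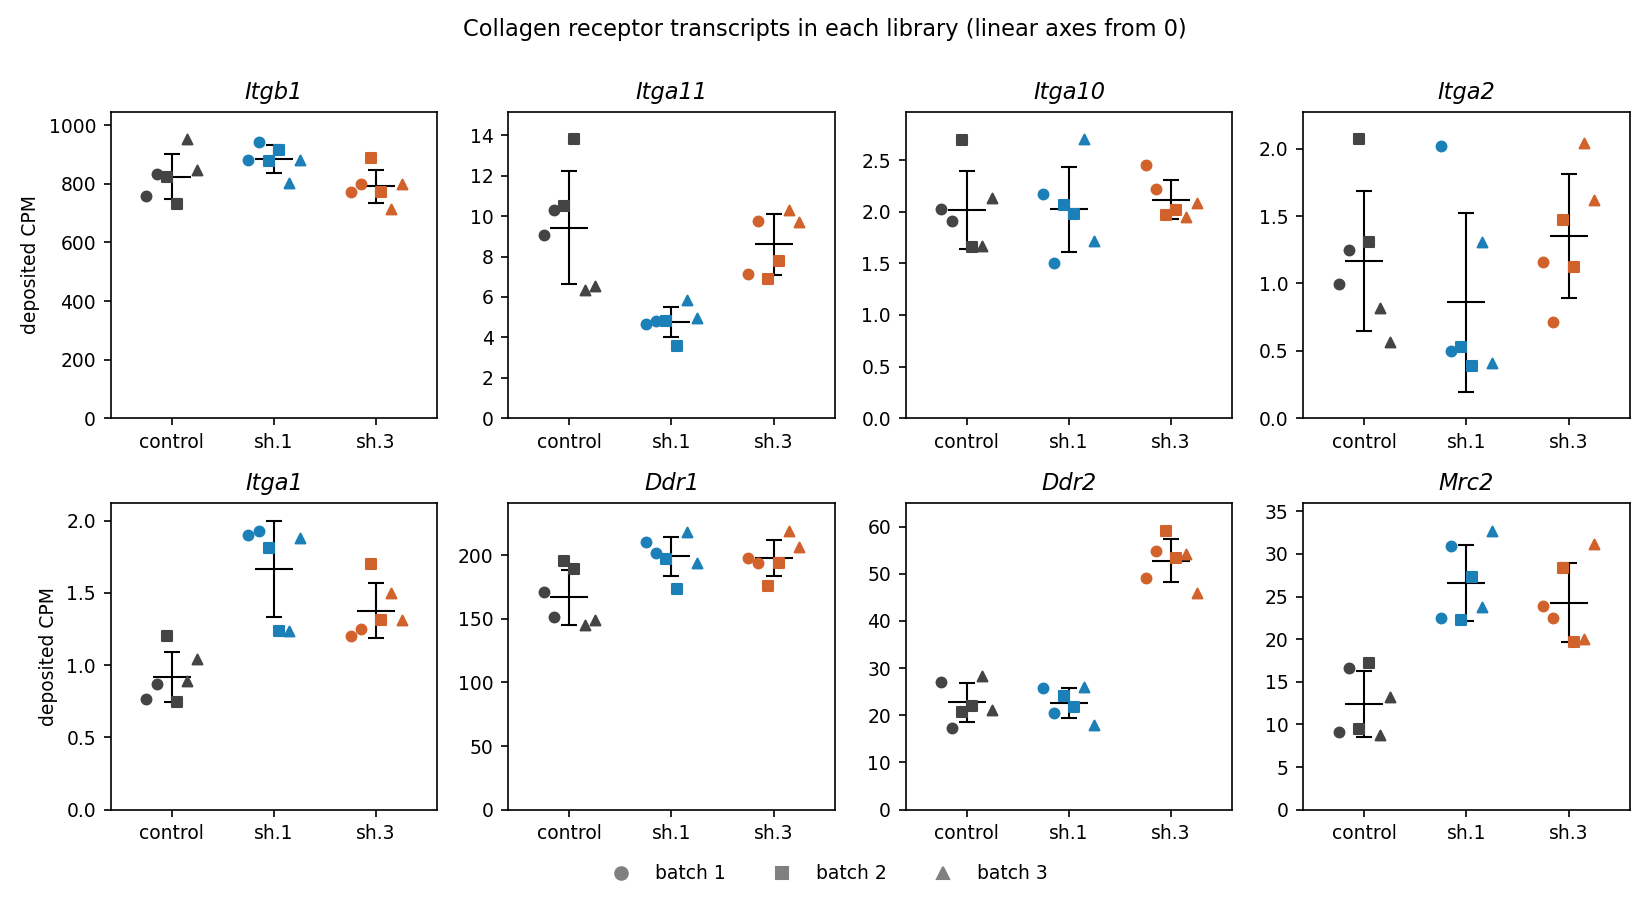
CPM on linear axes from 0 for the 8 collagen receptor genes, 1 panel each, with the 6 libraries of each group (sh.1 and sh.3 are the hairpins) as points shaped by batch and the mean with SD as bars. Ddr2 stands apart under shRNF185.3, from 46.0 to 59.1 CPM, and Itga11 is lowest under shRNF185.1, from 3.57 to 5.83 CPM.

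For 3 of the genes that changed, the 250 bases before an annotated start are shown. Whether these bases have a part in the changes was not tested. RefSeq windows on GRCm38.p6 matched 7 of the 8 genes, and Mrc2 had no entry. Both strands were searched for 5 motifs: AP-1 (TGANTCA), the GC box (GGGCGG), TEAD (GGAATG), the interferon-stimulated response element and the TATA box (TATAAA). Each sequence runs 5′ to 3′ on the gene's strand, with a motif match in capitals.
Itga1: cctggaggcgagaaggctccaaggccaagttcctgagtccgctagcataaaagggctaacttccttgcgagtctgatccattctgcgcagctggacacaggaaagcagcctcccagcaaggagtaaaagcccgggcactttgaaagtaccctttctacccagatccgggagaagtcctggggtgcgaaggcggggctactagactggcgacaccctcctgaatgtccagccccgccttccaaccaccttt
Ddr1: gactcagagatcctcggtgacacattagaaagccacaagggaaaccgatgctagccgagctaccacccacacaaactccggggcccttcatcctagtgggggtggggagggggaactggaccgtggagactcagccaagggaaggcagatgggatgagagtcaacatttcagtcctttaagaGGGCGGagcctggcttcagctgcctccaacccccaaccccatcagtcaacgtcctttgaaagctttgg
Itga11: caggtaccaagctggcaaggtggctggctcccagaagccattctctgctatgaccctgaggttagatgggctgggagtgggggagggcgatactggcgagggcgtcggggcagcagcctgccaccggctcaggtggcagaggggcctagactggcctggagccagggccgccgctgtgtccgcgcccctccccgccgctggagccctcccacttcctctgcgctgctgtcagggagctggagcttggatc

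The Itga1 window is chr13:115101965-115102214 on the minus strand, the Ddr1 window chr17:35704600-35704849 on the minus strand and the Itga11 window chr9:62677605-62677854 on the plus strand. The Ddr1 window, the outermost of 4 for that gene, held a GC box 68 to 63 bases before the start, and 3 of the 4 Ddr1 windows held at least 1 GC box. A GC box lay in 32.7% of all 32851 windows of this length, so its presence is common. Another Ddr1 window, not shown, also held an AP-1 match 151 to 145 bases before its start. That motif lay in 6.75% of all windows. No motif matched in the Itga1 or Itga11 window, which says only that these letters are not there. The 30 bases after the Itga1 window occur in 1 of 6 annotated transcripts, at position 1. Those after the Itga11 window occur in 1 of 2, at position 30. Those after the Ddr1 window shown occur in 2 of 12 annotated transcripts, at positions from 1 to 23. The ends of the Itga11 and Ddr1 windows thus hold some transcribed bases. The other annotated transcripts of these genes do not hold those bases and may start elsewhere, so each window shown stands for some transcripts only. The Ddr2 window is not shown, because the 30 bases after it occur in 6 of 6 annotated transcripts at positions from 1 to 301, so that it does not lie before every start. The GC content was 57.6% in the Itga1 window, 56.8% in the Ddr1 window and 68.4% in the Itga11 window, and the median over all windows was 52.4%.

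Levels of different genes were compared per exonic kilobase, with all annotated exons of a gene merged. In control cells the order was Itgb1 at 202 CPM per kb, Ddr1 at 34.9, Ddr2 at 2.46, Mrc2 at 1.86, Itga11 at 1.84, Itga10 at 0.388, Itga2 at 0.164 and Itga1 at 0.0493. Ddr2 was higher than Mrc2 in 4 of the 6 control libraries and Mrc2 higher than Itga11 in 3 of 6, so these neighbours were not separated. In CPM, not divided by length, Itga1 (0.747 to 1.2) and Itga2 (0.565 to 2.07) overlapped in control. Their separation per kilobase rests on the exonic lengths used. With shRNF185.1, Mrc2 at 3.98 CPM per kb stood above Ddr2 at 2.44, and only Itga2 and Itga1 overlapped as neighbours. With shRNF185.3, Ddr2 was at 5.70 and Mrc2 at 3.64 CPM per kb, and no neighbours overlapped.

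**Figure D2:**
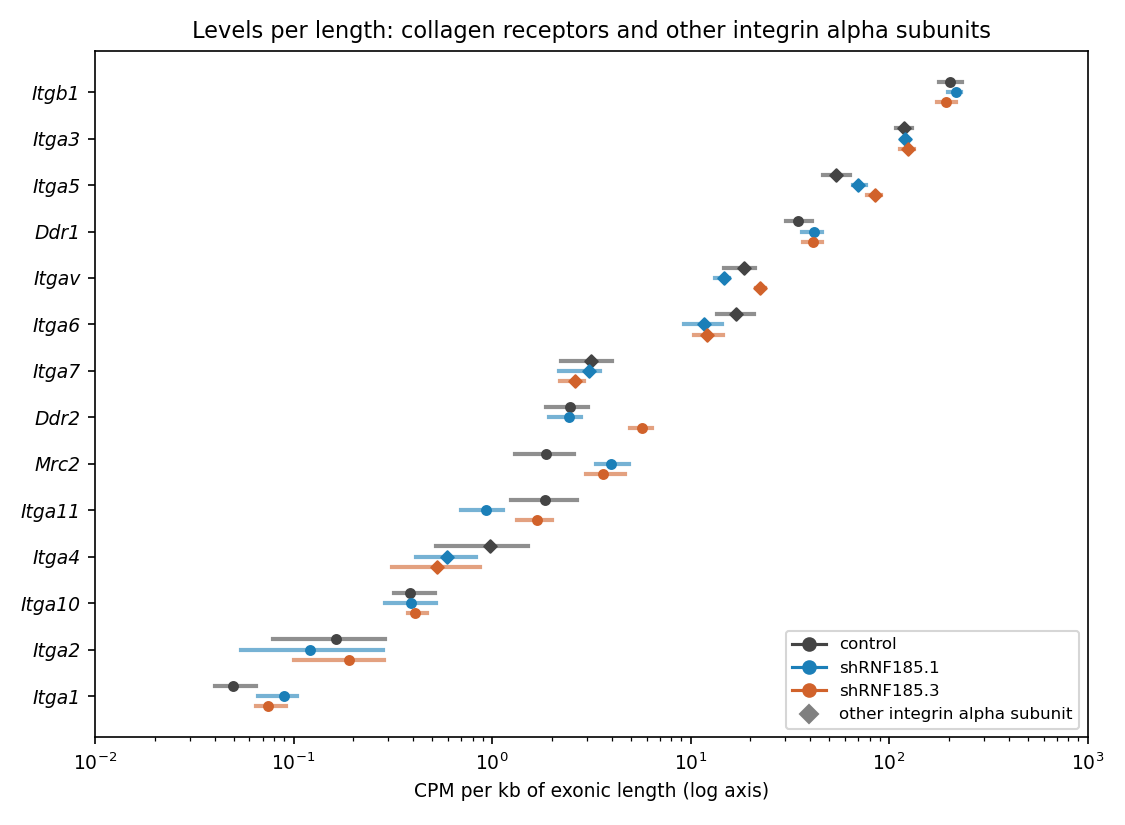
CPM per exonic kilobase on a log axis for the 8 collagen receptor genes and 6 other integrin alpha subunits, as group means with bars from the lowest to the highest of 6 libraries. Itgb1 and Itga3 lie highest, and the 4 collagen-binding alpha subunits lie between 0.0493 and 1.84 CPM per kb in control cells.

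The collagen-binding alpha subunits were a small part of the alpha subunits in these cells. They made up 1.14% ± 0.284 of the summed level per kilobase of 12 alpha subunits in control, 0.689% ± 0.105 under shRNF185.1 and 0.945% ± 0.138 under shRNF185.3 (SD, n = 6 each). Itga11 was the most abundant of the 4, at 74.7% ± 5.1 of their sum in control, 61.0% ± 5.29 under shRNF185.1 and 71.1% ± 3.87 under shRNF185.3 (SD, n = 6 each). The laminin-binding subunit Itga3, at 119 CPM per kb, and the fibronectin-binding subunit Itga5, at 53.9, led the alpha subunits in control. In these bulk samples, fewer cells of a type and less RNA per cell cannot be told apart.

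Itgb1 (ENSMUSG00000025809; chr8:128685654-128733200 of GRCm38, plus strand, 4081 exonic bases) encodes the beta1 subunit that every collagen-binding alpha subunit needs. Its lowest, median and highest values were 732, 829 and 952 CPM in control, 803, 882 and 944 CPM under shRNF185.1, and 714, 786 and 890 CPM under shRNF185.3. The 3 groups overlapped. The log2 fold change was 0.10 under shRNF185.1 (95% interval -0.03 to 0.23, adjusted p = 0.248) and -0.06 under shRNF185.3 (-0.19 to 0.07, adjusted p = 0.534). Between the hairpins it was -0.16 (-0.29 to -0.03, adjusted p = 0.106), lower under shRNF185.3 in each batch, by log2 differences of -0.22, -0.11 and -0.16. A difference passed the threshold for shRNF185.1 against control without batch 3 (0.20, adjusted p = 0.042). Between the hairpins it passed after a GC and length correction (-0.17, adjusted p = 0.0387), also combined with the replicate block (-0.17, adjusted p = 0.0496), and without shRNF185.3 replicate 3 (adjusted p = 0.045).

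Itga1 (ENSMUSG00000042284; chr13:114953096-115101964, minus strand, 18599 exonic bases) encodes the alpha1 subunit. The lowest, median and highest values of this gene were 0.747, 0.879 and 1.20 CPM in control, 1.24, 1.85 and 1.93 CPM under shRNF185.1, and 1.20, 1.31 and 1.70 CPM under shRNF185.3. Every shRNF185.1 library lay above all control libraries, and so did every shRNF185.3 library, though the lowest of them and the highest control library both round to 1.20 CPM. The gene had only 23 to 62 counts per library. The log2 fold change was 0.87 under shRNF185.1 (SE 0.16, adjusted p = 0.000351) and 0.60 under shRNF185.3 (SE 0.16, adjusted p = 0.00879). By batch (1, 2 and 3) the log2 difference was 1.23, 0.66 and 0.67 under shRNF185.1 and 0.59, 0.66 and 0.55 under shRNF185.3. The shRNF185.3 call was lost without batch 1 (0.60, adjusted p = 0.0782) and without batch 3 (0.63, adjusted p = 0.0601). On the log2(CPM + 1) scale, which understates changes of a gene this low, the values were 0.47 and 0.31 and both calls held. Itga1 shares 2.92% of its 75-base exonic windows with Gm49395, an overlapping gene model.

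Itga2 (ENSMUSG00000015533; chr13:114833081-114932100, minus strand, 7133 exonic bases) lies beside Itga1 and encodes the alpha2 subunit, known from platelets and epithelia. From lowest over median to highest, its values were 0.565, 1.12 and 2.07 CPM in control, 0.388, 0.516 and 2.02 CPM under shRNF185.1, and 0.715, 1.31 and 2.04 CPM under shRNF185.3. In the shRNF185.1 group 4 of 6 libraries were below the lowest control library, while replicates 1 and 5 were at 2.02 and 1.31 CPM. The log2 fold changes were -0.44 (95% interval -1.27 to 0.40, adjusted p = 0.442) and 0.22 (-0.58 to 1.02, adjusted p = 0.714). The intervals allow changes of more than 1 log2 unit. The sign turned to 0.22 under shRNF185.1 without batch 2, and to -0.32 under shRNF185.3 without batch 3.

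Itga10 (ENSMUSG00000090210; chr3:96645584-96664519, plus strand, 5186 exonic bases) encodes the alpha10 subunit of cartilage. It ranged from 1.66 to 2.69 CPM in control, from 1.5 to 2.7 CPM under shRNF185.1 and from 1.95 to 2.45 CPM under shRNF185.3, with medians of 1.97, 2.02 and 2.05 CPM. The groups overlapped throughout, with log2 fold changes of 0.01 (95% interval -0.29 to 0.31) and 0.08 (-0.22 to 0.38), adjusted p = 0.976 and 0.726. Its counts are uncertain, because 29.0% of its 75-base exonic windows are shared with the gene model Gm42957.

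Itga11 (ENSMUSG00000032243; chr9:62677826-62783982, plus strand, 5131 exonic bases) encodes the alpha11 subunit, a receptor for fibrillar collagen in fibroblasts. Its lowest, median and highest values were 6.36, 9.70 and 13.8 CPM in control, 3.57, 4.80 and 5.83 CPM under shRNF185.1, and 6.88, 8.74 and 10.3 CPM under shRNF185.3. The shRNF185.1 libraries all lay below every library of the other groups, which overlapped each other. The log2 fold change was -0.99 under shRNF185.1 (SE 0.17, adjusted p = 0.000267) and -0.13 under shRNF185.3 (SE 0.17, 95% interval -0.49 to 0.22, adjusted p = 0.595). In control, replicate 4 of batch 2 was highest at 13.8 CPM, and replicates 5 and 6, both of batch 3, were lowest at 6.36 and 6.56 CPM. Batches 1, 2 and 3 gave log2 differences of -1.04, -1.54 and -0.27 under shRNF185.1, and -0.21, -0.72 and 0.63 under shRNF185.3. Without batch 3 the value was -1.3 under shRNF185.1 and -0.47 under shRNF185.3 (adjusted p = 0.0481, then called), and without batch 2 it was -0.67, still called, and 0.19.

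Ddr1 (ENSMUSG00000003534; chr17:35681567-35704621, minus strand, 4774 exonic bases) encodes the discoidin domain receptor typical of epithelia. An antisense gene model, Gm4577, overlaps 4.53% of its exonic bases, and without a stated strand setting reads of the pair cannot be told apart there. The lowest, median and highest values of this gene were 145, 161 and 195 CPM in control, 173, 199 and 218 CPM under shRNF185.1, and 176, 196 and 219 CPM under shRNF185.3. Of 6 libraries, 4 under shRNF185.1 and 3 under shRNF185.3 exceeded all control libraries, so the groups overlapped. The log2 fold change was 0.26 under shRNF185.1 (SE 0.08, adjusted p = 0.0174) and 0.25 under shRNF185.3 (SE 0.08, adjusted p = 0.0211). The rise was not seen in batch 2: batches 1, 2 and 3 gave 0.36, -0.05 and 0.48 under shRNF185.1, and 0.28, -0.05 and 0.53 under shRNF185.3. Without batch 2 the values were 0.42 and 0.40. Both calls were lost without batch 1 (0.20 and 0.23, adjusted p = 0.249 and 0.183), without batch 3 (0.15 and 0.11, adjusted p = 0.248 and 0.393) and when the 2 libraries of a group within a batch were summed (0.27 and 0.27, adjusted p = 0.076 and 0.0853). The shRNF185.3 call was also lost when control replicate 2, 5 or 6 or shRNF185.3 replicate 5 was left out, with adjusted p = 0.0509, 0.051, 0.0514 and 0.0556.

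Ddr2 (ENSMUSG00000026674; chr1:169972307-170110762, minus strand, 9264 exonic bases) encodes the fibrillar collagen receptor of mesenchymal cells, and 0.972% of its exonic bases overlap the antisense gene 3110045C21Rik. From lowest over median to highest, its values were 17.4, 21.6 and 28.4 CPM in control, 17.9, 22.9 and 26.1 CPM under shRNF185.1, and 46.0, 53.8 and 59.1 CPM under shRNF185.3. The shRNF185.3 libraries lay above all others, and the control and shRNF185.1 libraries overlapped. The log2 fold change was 1.21 under shRNF185.3 (SE 0.11, adjusted p = 2.09e-07) and -0.01 under shRNF185.1 (SE 0.11, 95% interval -0.24 to 0.22, adjusted p = 0.955). Within batches 1, 2 and 3 the log2 differences under shRNF185.3 were 1.26, 1.40 and 1.03. The ratio of Ddr1 to Ddr2 per kilobase was 14.6 ± 3.21 in control, 17.3 ± 2.27 under shRNF185.1 and 7.34 ± 0.997 under shRNF185.3 (SD, n = 6 each). Ddr1 stayed the more abundant of the pair in all 3 groups.

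Mrc2 (ENSMUSG00000020695; chr11:105292643-105351139, plus strand, 6674 exonic bases) encodes the uptake receptor Endo180. Its lowest, median and highest values were 8.74, 11.4 and 17.2 CPM in control, 22.2, 25.6 and 32.7 CPM under shRNF185.1, and 19.7, 23.2 and 31.2 CPM under shRNF185.3. Every hairpin library exceeded every control library. The log2 fold change was 1.09 under shRNF185.1 (SE 0.17, adjusted p = 0.000108) and 0.97 under shRNF185.3 (SE 0.17, adjusted p = 0.000381). In batches 1, 2 and 3 the log2 difference came to 1.1, 0.95 and 1.38 under shRNF185.1, and 0.92, 0.89 and 1.21 under shRNF185.3. In control the libraries numbered 2, 4 and 6 had 16.6, 17.2 and 13.2 CPM, all above those numbered 1, 3 and 5, at 9.14, 9.50 and 8.74 CPM. The same held under shRNF185.1, at 30.9, 27.3 and 32.7 against 22.5, 22.2 and 23.8 CPM, but not under shRNF185.3.

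**Figure D3:**
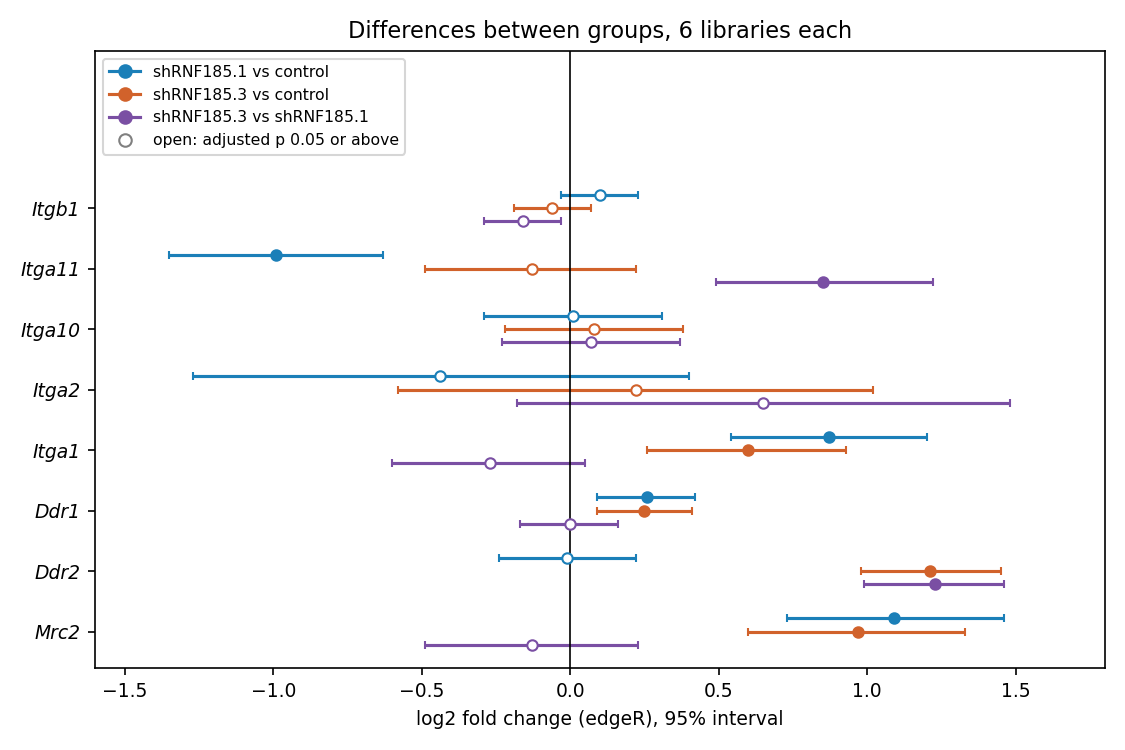
Log2 fold change with 95% interval for the 8 collagen receptor genes in each of the 3 comparisons, from edgeR's quasi-likelihood fit, with open points where the adjusted p was 0.05 or above. Mrc2 and Itga1 lie above 0 with both hairpins, Ddr2 only in the comparisons under shRNF185.3, and Itga11 lies at -0.99 under shRNF185.1.

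The direct comparison of the hairpins, in which the control libraries enter only the filter, the scaling and the estimate of the spread, separated 2 genes. Ddr2 was higher under shRNF185.3 than under shRNF185.1 by 1.23 log2 units (SE 0.11, adjusted p = 4e-07), with batch values of 1.19, 1.3 and 1.21. Itga11 was higher by 0.85 (SE 0.17, adjusted p = 0.00215), with batch values of 0.82, 0.82 and 0.90, and its call was lost without batch 1 (0.86, adjusted p = 0.0714). Rnf185 itself was at 5.81 ± 0.582 CPM under shRNF185.1 and 5.80 ± 0.546 CPM under shRNF185.3 (SD, n = 6 each). The genes that rose with both hairpins did not pass the test between them: the log2 difference was -0.27 for Itga1 (95% interval -0.60 to 0.05, adjusted p = 0.287), 0.00 for Ddr1 (-0.17 to 0.16, adjusted p = 0.985) and -0.13 for Mrc2 (-0.49 to 0.23, adjusted p = 0.737). The interval for Itga1 reaches -0.60, the size of its rise under shRNF185.3.

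**Figure D4:**
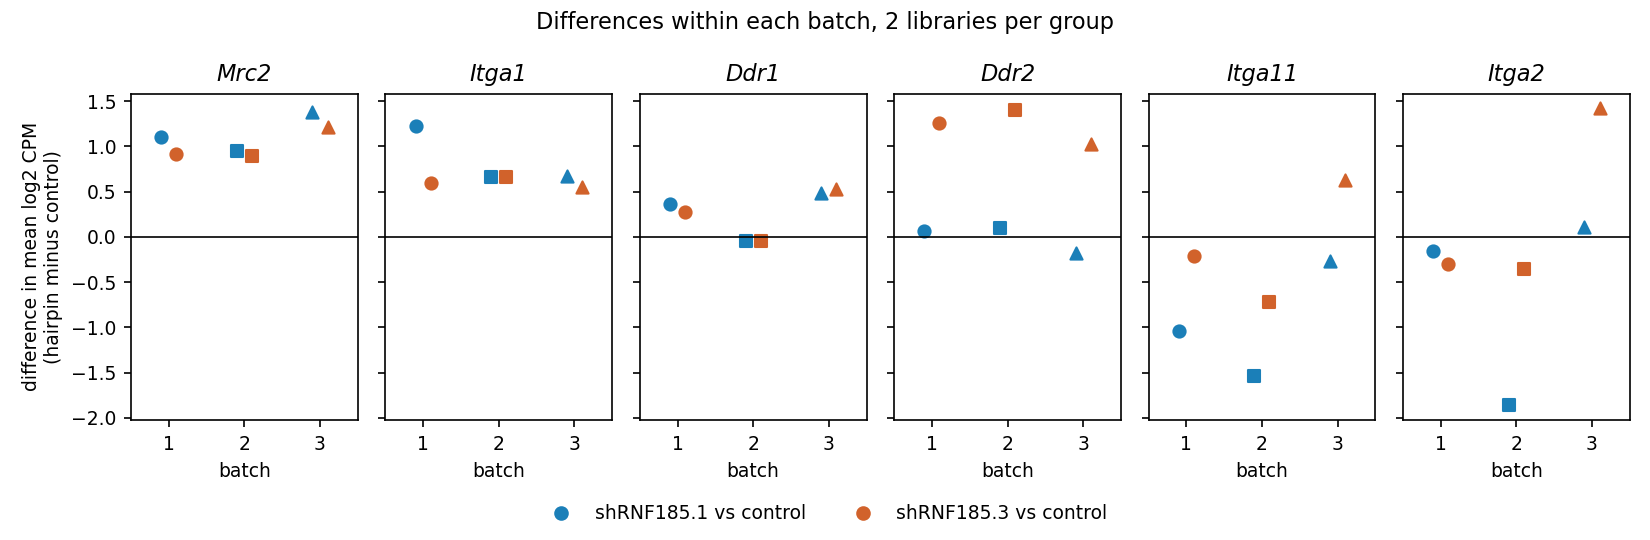
Log2 difference of group means within batches 1, 2 and 3, with 2 libraries per group and batch, for 6 of the collagen receptor genes, each hairpin against control. Mrc2 and Itga1 are above 0 in each batch with both hairpins, and Ddr1 is at -0.05 in batch 2 with both.

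For the 3 genes called with both hairpins, the genes with the most similar pattern were sought among 12457 genes, by the mean absolute difference in log2 CPM over the 18 libraries after centring each gene on its control mean. Nearest to Itga1 were Cd302, a C-type lectin (0.135), and Lpp, a protein of focal adhesions (0.165). Cd302 averaged 3.78 CPM in control, 5.92 under shRNF185.1 and 5.82 under shRNF185.3. Nearest to Ddr1 were Pgpep1, a peptidase (0.048), and Rab4a, a small GTPase of endosome recycling (0.051). Pgpep1 was not called under shRNF185.1 (edgeR adjusted p = 0.103), and its shRNF185.3 call was lost in 19 of 33 alternatives. Rab4a lost its shRNF185.1 call in 22 of 33 and its shRNF185.3 call in 13 of 33. Nearest to Mrc2 were Clmp, a junction adhesion protein (0.143), at 14.0, 30.5 and 27.2 CPM in the 3 groups, and Calhm5, of the calcium homeostasis modulator family (0.193). The likeness rests on library values that share depth and batch, and carries no test.

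The other genes around the receptors are given from lists chosen with earlier results of these data known. Of 8 other alpha partners of Itgb1, 6 were tested. Under shRNF185.1 1 rose and 3 fell, and under shRNF185.3 2 rose and 2 fell, at median log2 fold changes of -0.18 and -0.10. These are 66.7% of those tested with each hairpin, beside 28.9% and 27.3% of all genes. Itga5, the alpha subunit of the fibronectin receptor, rose from 266 ± 32.1 CPM to 346 ± 18.3 under shRNF185.1 (log2 fold change 0.38, adjusted p = 0.000391) and 419 ± 28.4 under shRNF185.3 (0.66, adjusted p = 1.21e-06; SD, n = 6 each). Itga4, which binds fibronectin and VCAM-1, fell from 13.7 ± 5.37 CPM to 8.32 ± 1.97 and 7.40 ± 2.56 (-0.71 and -0.88, adjusted p = 0.0367 and 0.013). The Itga4 call was lost in 14 of 33 alternatives under shRNF185.1, 8 of which left out 1 library, and in 3 of 33 under shRNF185.3.

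Inside the cell, integrins are switched on and tied to actin by talins, kindlins and the ILK, PINCH and parvin complex. Of 20 such adhesion genes, 5 rose and 1 fell under shRNF185.1, and 6 rose and 2 fell under shRNF185.3, at medians of 0.07 and 0.06. These are 30% and 40% of the list, beside 28.9% and 27.3% of all genes. The count under shRNF185.3 fell from 8 to 5 when control replicate 1 or 5 or shRNF185.3 replicate 6 was left out, and to 3 without batch 1. The parvins Parva and Parvb, the zyxin gene Zyx and Lims2, a PINCH adaptor, rose with both hairpins. Lims2 was scarce, at 0.179, 0.399 and 0.330 CPM in the 3 groups (log2 fold changes 1.15 and 0.86, adjusted p = 0.00485 and 0.0374), and its shRNF185.3 call was lost in 18 of 31 alternatives. Fermt1, the kindlin of epithelial cells, fell from 2.64 ± 1.68 CPM to 0.864 ± 0.467 under shRNF185.1 and 0.457 ± 0.21 under shRNF185.3 (-1.6 and -2.52, adjusted p = 0.00359 and 0.000157; SD, n = 6 each).

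Of 9 signalling partners of the discoidin domain receptors, 3 rose under shRNF185.1 and 2 under shRNF185.3, and the others did not pass the test, at medians of 0.10 and 0.07. At 33.3% and 22.2% of the list, these shares are near those of all genes, 28.9% and 27.3%. Pik3r1, the regulatory subunit of phosphoinositide 3-kinase, rose with both (0.65 and 0.51, adjusted p = 5.78e-06 and 8.96e-05). Around Mrc2, 8 of 9 genes of the mannose receptor family and of collagen uptake were tested. The lysosomal protease Ctsb, the membrane collagenase Mmp14 and the family member Pla2r1 rose with both hairpins. The other 5 did not pass the test with either, at list medians of 0.15 and 0.03. With each hairpin 37.5% of the tested genes of the list were called, beside 28.9% and 27.3% of all genes. The list's count under shRNF185.1 was 5 in place of 3 without control replicate 4. Over the 15 alternatives that kept every library or left out a batch, it ran from 1 to 6. Ctsb went from 316 ± 30.8 CPM to 511 ± 54.9 and 510 ± 43.8 (0.69 with each, adjusted p = 2.68e-06 and 2.86e-06; SD, n = 6 each).

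Of 5 other collagen receptors, 2 were tested. Gp6, Lair1 and Oscar had 2, 1 and 24 counts summed over all libraries and were not tested. Cd44, better known as a hyaluronan receptor, did not pass the test with either hairpin (0.15 and -0.01). Adgrg1, the adhesion GPCR known as GPR56 and a receptor of collagen III, was singled out after its values were seen. It was at 15.5 ± 2.29 CPM in control, 16.5 ± 1.12 under shRNF185.1 and 32.4 ± 2.26 under shRNF185.3 (SD, n = 6 each). Its log2 fold change was 0.09 under shRNF185.1 (adjusted p = 0.446), 1.07 under shRNF185.3 (adjusted p = 3.68e-08) and 0.98 between the hairpins (adjusted p = 1.67e-07). Like Ddr2 it was called under shRNF185.3 alone among the comparisons with control, and called between the hairpins.

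The collagens that these receptors bind were measured in the same libraries. Of 11 fibrillar collagen genes, 7 rose and 2 fell under shRNF185.1, at a median log2 fold change of 1.11. Under shRNF185.3 9 rose and the other 2 did not pass the test, at a median of 1.54. These are 81.8% of the list with each hairpin, beside 28.9% and 27.3% of all genes. The 2 that fell under shRNF185.1, Col1a2 and Col2a1, were called higher under shRNF185.3. Col1a2 averaged 374 CPM in control, 254 under shRNF185.1 and 545 under shRNF185.3 (log2 fold changes -0.56 and 0.55, edgeR adjusted p = 0.00306 and 0.00379). Col3a1, the collagen III gene named in the series title, was at 545 ± 130 CPM in control, 1175 ± 318 under shRNF185.1 and 1650 ± 309 under shRNF185.3 (SD, n = 6 each). Col11a1, of a minor fibrillar collagen, rose by 2.08 and 1.6 (adjusted p = 1.47e-06 and 3.27e-05). Of 9 genes of collagens IV and VI, 6 were tested, and 4 rose under shRNF185.1 and 6 under shRNF185.3. That is 66.7% and 100% of those tested, beside the same shares of all genes. Col6a2 rose by 0.66 and 1.03 (adjusted p = 0.000281 and 2.85e-06).

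Some marker genes of other cell states moved between the same groups. The summed level of the 6 epithelial markers ran from 1460 to 1770 CPM in control, from 903 to 1180 under shRNF185.1 and from 974 to 1040 under shRNF185.3. Cdh1, the E-cadherin gene, was called lower with both hairpins, by log2 fold changes of -1.91 and -2.13. The summed level of the 5 fibroblast markers ran from 255 to 287 CPM in control, from 285 to 307 under shRNF185.1 and from 353 to 403 under shRNF185.3. For the 4 mesenchymal markers the ranges were 4690 to 6570, 5500 to 6490 and 6210 to 7700 CPM. Of these markers, Vim and Cdh2 were called with neither hairpin and Zeb1 was called higher with both. Fn1 was called higher under shRNF185.3 alone (log2 fold change 0.41). Among the fibroblast markers, Pdgfrb was called higher with both hairpins (log2 fold changes 0.36 and 0.58). Pdgfra was called higher under shRNF185.3 alone (0.46) and was at 0.00 under shRNF185.1. Dcn, the decorin gene, moved against the sum under shRNF185.1: it was called lower, from 24.9 ± 7.75 to 5.76 ± 2.25 CPM (SD, n = 6 each, log2 fold change -2.11, edgeR adjusted p = 2.03e-05). Lum and Thy1 were under 1 CPM. Summed levels of immune markers ran from 2.43 to 5.09 CPM in control, 1.77 to 2.90 under shRNF185.1 and 2.20 to 3.33 under shRNF185.3. Cd68, the only immune marker tested, was called lower under shRNF185.1 (log2 fold change -0.68, edgeR adjusted p = 0.0117) but not under shRNF185.3. Those of endothelial markers were at 0.0701 to 0.708 CPM over all libraries. The part of these markers in the changes of the collagen receptors was not tested.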

How the data were processed

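Polyadenylated RNA of 18 MPC3 libraries was sequenced as single-end reads of 75 bases from a directional kit, per the labels. The submitters' processing notes name cutadapt 2.3, STAR 2.7.0d, RSEM 1.3.1 and mm10. The strand setting of the counting is not given in the sources used here. The authors deposited expected counts, of which 0.466% are not whole, in a table whose name gives ComBat-Seq (an adjustment of counts for batch). The values were rounded for all count tests. Whether that adjustment was told the groups is not given in the sources used here. It brings batch means together, which can lower the spread between libraries. The deposited CPM are a normalised signal, since library sums run from 969986 to 1026394, and equal the counts over TMM-scaled library sizes.

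Genes were kept by filterByExpr (minimum count 10) and tested in R 4.3.3 with edgeR 4.0.16 (TMM scaling, quasi-likelihood F test, a mean per group, all 18 libraries, no covariate), with Benjamini-Hochberg adjustment over 14309 genes. Whole counts had been assumed in the design; the same test was used. The 33 alternatives included limma 3.58.1 (log2(CPM + 1)), DESeq2 1.42.0, other scalings and filters, batch terms, the replicate block, and leaving out each batch and library. Symbols matched 99.1% of identifiers. Positions and exonic lengths are from GENCODE M21 on GRCm38, promoter windows from RefSeq. Libraries of a group differed beyond sampling noise in all 45 pairs (chi-square per gene 7.64 to 84.4). The edgeR procedure was tested on simulated data.

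The genes and lists were chosen with earlier results of these data known. Besides the 8 genes, Rnf185 and Col3a1, the named genes are those of each list with the largest rise and fall called with both hairpins, and the 2 nearest in pattern to each of the 8 genes called with both. All other genes named, such as Adgrg1, Cd44, Parva, Mmp14, Itga3, Cdh1 and Dcn, fall outside this rule and were chosen after their values were seen. No per-sample column was left without a sample.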

Additional observations from a re-analysis of the deposited data

Results flagged for a closer look

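The response of 2 collagen receptor genes differed between the hairpins in a direct test of that difference. Ddr2 under shRNF185.3 exceeded its level under shRNF185.1 by 1.23 log2 units (edgeR adjusted p = 4e-07), and higher in 6 of 6 libraries than every shRNF185.1 library. Itga11 was higher by 0.85 (edgeR adjusted p = 0.00215), also in 6 of 6 libraries. Each of the 24 sets of 6 libraries (8 genes in 3 groups) was also checked for a single library far from the rest by Dixon's test, which found 0, where chance gives about 1.2.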

How the results depend on the processing

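Over 24 gene comparisons and 33 alternatives, 744 of 792 values kept their direction and side of the threshold. Ddr2 under shRNF185.3 (1.12 to 1.31) and between hairpins (1.17 to 1.27), Mrc2 under shRNF185.1 (0.97 to 1.21) and shRNF185.3 (0.84 to 1.09), and Itga1 (0.47 to 0.96) and Itga11 (-1.3 to -0.67) under shRNF185.1 kept their calls in all 33. The 0.47 of Itga1 is on the log2(CPM + 1) scale and is not comparable with the other values. Its call was near the threshold without batch 1 (0.68, edgeR adjusted p = 0.0464). Scaling and correction alternatives moved the median of all genes by at most 0.042.

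Without batch 1, 2 of 8 genes were called under shRNF185.3 (Ddr2 and Mrc2) and 1 between hairpins (Ddr2). The count over all genes then fell from 4141 to 2207 under shRNF185.1, from 3906 to 2120 under shRNF185.3 and from 2098 to 753 between hairpins. Without batch 3 it was 2501 under shRNF185.3, and without batch 2 it was 1208 between hairpins. These fits hold fewer libraries. Leaving out 1 library gave 4 to 4, 3 to 4 and 2 to 3 of the 8 genes, and 3692 to 4215, 3338 to 3995 and 1696 to 2283 of all genes.

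Signs turned only for values that were not called, and the cause was not tested. For shRNF185.1 these were Itga2 without batch 2 (0.22), Itga10 with the GC and length correction (-0.05), with that and the replicate block (-0.06) and without batch 3 (-0.10), and Ddr2 with library size alone (0.02) and without batch 3 (0.07). For shRNF185.3 they were Itga2 without batch 3 (-0.32), Itga10 with the GC and length correction (0.00) and without batch 1 (-0.01), Itga11 without batch 2 (0.19) and Itgb1 without batch 3 (0.04). Between hairpins they were Itga10 (-0.07) and Ddr1 (0.03) without batch 1. With 1 library left out, Itga10 ran from -0.09 to 0.10 under shRNF185.1 and from -0.01 to 0.17 between hairpins, Itga11 from -0.23 to 0.01 under shRNF185.3, Ddr1 from -0.05 to 0.03 between hairpins and Ddr2 from -0.08 to 0.06 under shRNF185.1.

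The shared replicate numbers were not taken to pair the libraries, since not every same-numbered pair correlated above 0.1. Deviations of same-numbered libraries of different groups correlated at -0.014 on average (-0.631 to 0.705, 18 pairs), those of differently numbered libraries of the same batch at -0.435 (18 pairs), and libraries of different batches and groups at 0.111 (72 pairs). In all, 2 of 18 libraries correlated best with their own number. These values do not settle whether the numbers mark pairs. With the replicate block the same 4, 4 and 2 of the 8 genes were called.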
